A study of Arabidopsis thaliana with 72 samples.

Results

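El-0, a natural accession of Arabidopsis thaliana, was compared in transcript level with 4 recombinant inbred lines, in shoots and in roots apart. The comparison used 60 of the 72 arrays of the study, 30 per organ: 6 of El-0 and 24 of the other lines. KB006 comes from a cross of Kondara and Br-0, NG064 and NG087 both come from Nok-3 and Ga-0, and SG063 comes from Sorbo and Gy-0. A recombinant inbred line is the inbred progeny of such a cross, so its genome is a mosaic of both parents. The lines had been chosen for their contrasting growth on low nitrogen. Plants were harvested 21 days after sowing from vertical agar plates with 1% sucrose, kept at 16 h of light and 8 h of dark. The nitrate supply was 0.4 mM (low) or 9 mM (sufficient). Each combination of line, organ and supply had 3 arrays, each a biological replicate made of 30 pooled plants from 3 plates. El-0 was set against the equal-weight mean of the 4 lines with nitrate supply as a covariate, and the accession Fei-0 was not used.

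Accessions of this species differ in many inherited transcript levels. Some differences follow from the presence or absence of a gene or from its regulatory sequence, and others arise through genes elsewhere in the genome. Chloroplast and mitochondrial genes are inherited from the mother alone, and their transcripts also depend on nuclear factors that transcribe, process and stabilise them. Nitrate supply acts on many of the same genes as a nutrient and as a signal.

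The deposited levels are log2 values per probe set, a group of short probes for 1 transcript. The lowest value in the table is 2.11, which is called the floor here. A difference is El-0 minus the mean of the 4 lines on the log2 scale, given with limma's standard error, and probe sets with an adjusted p below 0.05 are termed called. Levels with ± give the mean and SD over the 6 arrays of a line and organ. These arrays pool both nitrate supplies, so their SD holds the nitrate response too. Of 22746 probe sets, 13513 (59.4%) were paired with exactly 1 gene, and only these are named. The probes were designed on 1 reference accession, so a lower level in a line and a sequence difference under the probes cannot be told apart. Fewer cells of a type and less RNA per cell cannot be told apart either. The p-values measure the spread between pools of plants within lines. With 1 line against 4 lines, a permutation of whole lines could give no two-sided exact p below 0.2.

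All 60 arrays correlated best with the organ and supply on their label, across probe sets, with r from 0.954 to 0.993. Array medians lay between 5.72 and 6.03, and 25.1% to 27.8% of the probe sets of an array lay within 0.1 of the floor. No pair of arrays was identical. The lowest r belonged to El-0 shoots at sufficient nitrate, replicate 1, and CCL, whose transcript follows the circadian clock, stood at 7.69 there against 12.44 to 13.90 on the other 29 shoot arrays. Shoot results that rest on this array are given with and without it, a choice made after seeing the data. Leaf markers separated the organs: the mean over 8 measured leaf genes was 12.15 to 13.20 in shoots and 3.29 to 8.68 in roots. Of 8 floral and stem markers 0 had a probe set of their own, so such tissue in the shoot samples could not be checked.

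The named gene with the largest difference in both organs was QQS (AT3G30720), a gene found only in this species that acts on the starch and protein content of leaves. In El-0 shoots its level was 11.68, 11.49 and 11.91 at low and 11.34, 12.08 and 11.76 at sufficient nitrate. In the other shoots it ran from 2.11 over a median of 2.94 to 7.89. All 6 El-0 arrays lay above all 24 others. SG063 came next with a mean of 6.79 ± 0.82 and KB006 followed with 4.33 ± 1.49, while NG064 and NG087 averaged 2.77 ± 0.52 and 2.48 ± 0.29. In roots El-0 stood at 11.59 to 12.02 and the others at 2.11 to 5.07, again without overlap. The difference was 7.62 ± 0.31 in shoots (adjusted p = 7.37e-16) and 9.09 ± 0.23 in roots (adjusted p = 9.94e-21). Values at the floor understate a difference, and QQS was at the floor on single arrays of NG087 in both organs.

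**Figure D1:**
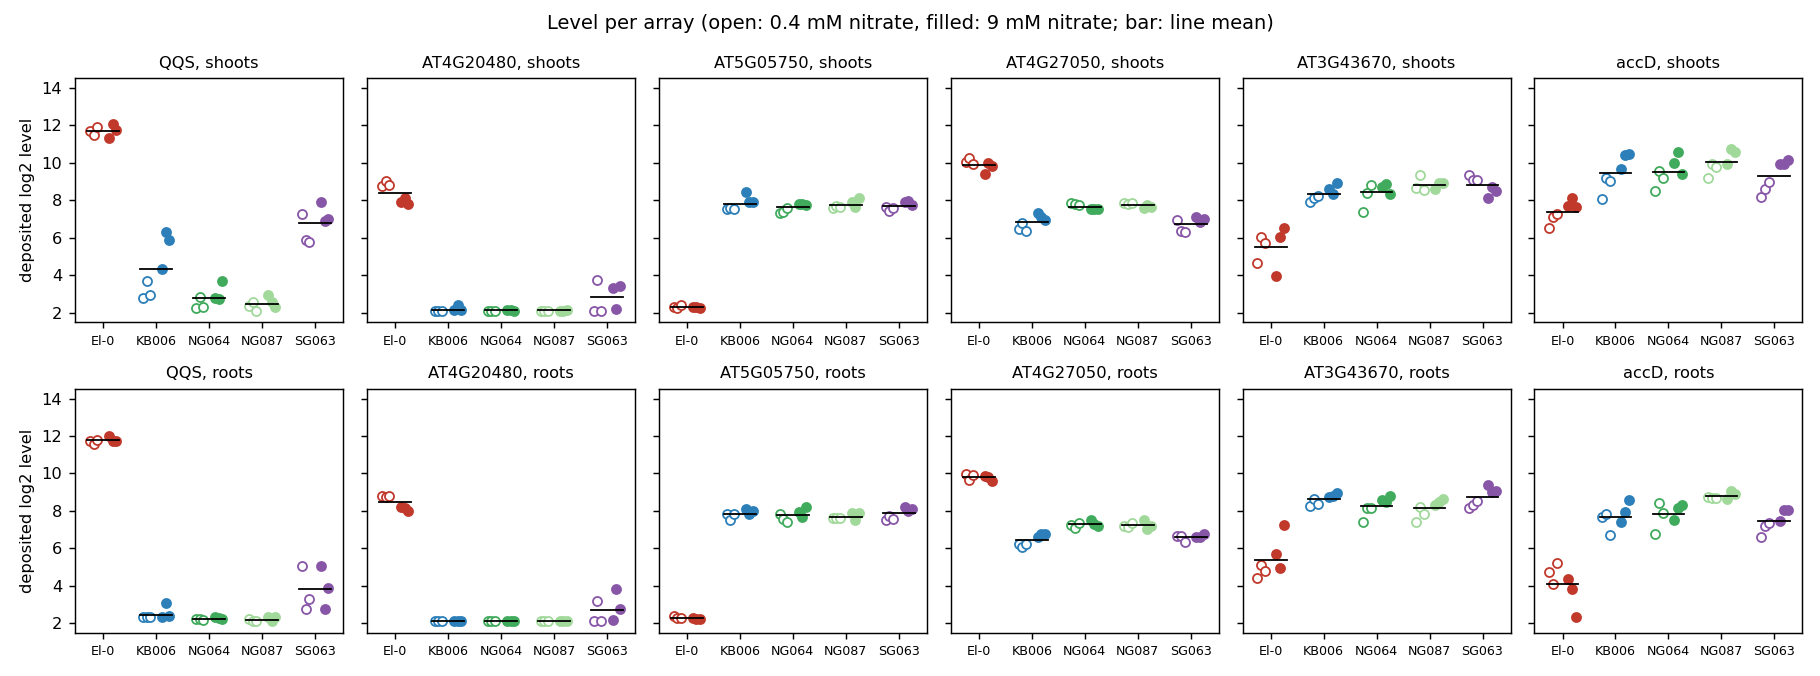
Deposited log2 level (y axis) of 6 genes on each array, by line (x axis), in shoots (top) and roots (bottom). Open circles are 0.4 mM and filled circles 9 mM nitrate, and bars are line means over 6 arrays. QQS, AT4G20480 and AT4G27050 lie above the other lines in El-0, and AT5G05750, AT3G43670 and accD lie below, in both organs.

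In shoots 4345 probe sets were called (19.1% of those tested), 2225 higher in El-0 (9.78%) and 2120 lower (9.32%). A difference of 2-fold or more was found for 912 (4.01%). Among the 12010 probe sets whose mean was 5 or more in each of the 5 lines, 3320 were called (27.6%), 1656 higher and 1664 lower, and 447 of these differed 2-fold or more (3.72%), 198 higher and 249 lower. El-0 was called against each of the 4 lines in the same direction for 325 higher (1.43%) and 367 lower (1.61%) probe sets. For 105 probe sets (0.462%) all 6 El-0 arrays lay outside the 24 others. Of the 912 probe sets with a 2-fold difference, 323 (35.4%) were called against each of the 4 lines, 257 against 3, 237 against 2, 83 against 1 and 12 against 0. Without El-0 sufficient replicate 1, 3387 probe sets were called in shoots.

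The brighter genes named next had line means of 5 or more, a probe set paired with 1 gene, and a 2-fold difference called against each of the 4 lines. Among these, AT4G27050 led the higher genes in shoots. Its El-0 arrays lay between 9.39 and 10.27 and the 24 others between 6.33 and 7.86, with a difference of 2.65 ± 0.13 (adjusted p = 2.63e-14). AT4G22280 followed, at 8.27 to 8.66 in El-0 and with line means of 5.13 to 6.96 elsewhere (2.35 ± 0.18). Neither gene overlapped between El-0 and the other lines. The next by this rule were UGT78D2, AT1G48750, AT2G13290, AT3G26590, TBL38, AT3G56200, AT5G37360 and UGT74D1, with differences of 1.79 down to 1.43. UGT78D2 glucosylates flavonols and anthocyanidins, TBL38 belongs to a family that acetylates cell wall polymers, and UGT74D1 glucosylates auxins. A further probe set of AT3G26590 stood at -0.07 (adjusted p = 0.491), so its difference of 1.73 depends on which probe set is read.

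Of the 10 genes lowest in El-0 shoots by the same rule, 4 were chloroplast genes, described with the chloroplast genome further on. AT3G43670 was lowest, at 3.96 to 6.54 in El-0 and 7.39 to 9.37 in the other lines (difference -3.11 ± 0.27, adjusted p = 4.16e-09). AT5G61520 was at -2.83 ± 0.26 and AT4G31570 at -2.74 ± 0.07. AT4G31570 lay at 4.86 to 5.44 in El-0, against line means of 7.74 to 8.14. AT1G31910 (-2.68, with El-0 at 8.30 to 8.79), AT3G22750 (-2.43) and AT1G65280 (-2.41) completed the list.

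Among probe sets with a line mean under 5 that were called against each line, several were at the floor in all 24 arrays of the other lines and clearly above it in El-0. AT1G03710 was at 6.50 to 7.40 in El-0 shoots and at 6.90 to 7.49 in El-0 roots, and at 2.11 on each array of the other lines in both organs. AT1G59265, a pseudogene in the gene table, was at 7.24 to 8.00 in El-0 shoots and 5.71 to 6.90 in El-0 roots, and at 2.11 on each other array. In all, 3 probe sets in shoots and 4 in roots had an El-0 mean of 5 or more with the other 4 means at the floor. AT4G20480 came close: El-0 stood at 7.82 to 9.01 in shoots and 8.02 to 8.81 in roots, and 3 of the lines averaged 2.11 to 2.17, while SG063 reached 3.74 in shoots and 3.85 in roots. Its differences were 6.09 ± 0.19 in shoots and 6.2 ± 0.16 in roots. AT3G15600, a pseudogene in the gene table, was higher in shoots (5.38 ± 0.23) and lay at 2.26 to 2.77 on all root arrays. AT5G59670 was higher in shoots by 4.00 ± 0.16. The probe sets of AT1G59265 and AT3G15600 can match several transcripts, so which copy was measured is uncertain.

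The reverse pattern, near the floor in El-0 and well above it in each other line, was seen for AT5G05750. El-0 lay between 2.24 and 2.43 in shoots and between 2.24 and 2.42 in roots, and the other lines at 7.33 to 8.45 and 7.41 to 8.23. The differences were -5.42 ± 0.08 and -5.50 ± 0.08 (adjusted p = 4.85e-26 and 1.71e-25). AT5G23250 lay above the floor in El-0, at 3.35 to 4.98 in shoots and 4.39 to 5.89 in roots, and was at -4.73 ± 0.14 and -4.42 ± 0.12, again with no overlap of arrays. In shoots AT5G03350 (-5.47 ± 0.39), AT5G52190 (-3.67), AT5G45310 (-3.67) and AT1G12400 (-3.57) completed the list. AT5G03350 was not at the floor throughout: El-0 reached 4.63, 4.81 and 7.96 at low nitrate and 2.12, 2.22 and 2.22 at sufficient, against 7.58 to 11.88 elsewhere.

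In roots 6007 probe sets were called (26.4%), 3258 higher in El-0 (14.3%) and 2749 lower (12.1%), and 907 differed 2-fold or more (3.99%). Of 12121 probe sets with line means of 5 or more, 4500 were called (37.1%), 2432 higher and 2068 lower. A 2-fold difference was found for 371 of them (3.06%), 179 higher and 192 lower. Called against each of the 4 lines were 597 higher (2.62%) and 533 lower (2.34%) probe sets, and for 231 (1.02%) the 6 El-0 arrays lay outside the 24 others. Of the 907 with a 2-fold difference, 430 (47.4%) were called against each line and 258, 182 and 37 against 3, 2 and 1 of the lines.

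By the same rule AT4G27050 led the brighter genes of roots as well, at 9.58 to 9.96 in El-0 and 6.10 to 7.52 elsewhere (2.90 ± 0.08, adjusted p = 1.53e-19). AT4G01390 (2.35 ± 0.41) and CP1 (2.1 ± 0.31), a cysteine protease gene, came next. CP1 reached 8.41 to 10.02 in El-0, while NG064 sufficient replicate 2 at 8.91 overlapped with it. AT4G17280 (1.81), AT1G14120 (1.66), AT1G48750 (1.64), AT1G06000 (1.64), AT5G57785 (1.6), AT2G26690 (1.6) and AT1G32470 (1.53) followed. AT2G26690 is NPF6.2 by its synonym in the gene table, a member of the nitrate and peptide transporter family. It was higher in El-0 by 2.26 at low and 0.94 at sufficient nitrate.

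AT5G23250 (-4.42) and AT3G43670 (-3.07 ± 0.20) were the lowest of the brighter genes in El-0 roots that were called against each line. They were followed, by the same rule, by AT4G22212 (-2.73), AT4G31570 (-2.61), the chloroplast gene petA (-2.55), AT1G65280 (-2.28), AT4G39675 (-2.28), AT3G44280 (-2.15), the chloroplast gene cemA (-2.12) and AT1G05340 (-2.0). AT3G43670, AT4G31570, AT1G65280 and petA thus stood among the 10 lowest in both organs. Of the dimmer genes AT3G32030 (6.21 ± 0.14), AT3G32040 (4.70 ± 0.08) and AT1G48800 (4.03 ± 0.18) were higher in El-0 roots. AT3G32030 lay at 8.06 to 8.72 there and at 2.11 in KB006, NG064 and NG087, while SG063 reached 3.5, and its probe set can match several transcripts. AT5G62340 (-5.30 ± 0.40), AT1G51990 (-4.92), AT3G51350 (-4.45), AT2G34840 (-4.33) and AT2G01090 (-3.89) were lower.

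The chloroplast genome stood out by its share of lower genes. Of 69 measured chloroplast genes 54 were lower in El-0 shoots and 0 were higher, 78.3% against 9.32% of all probe sets, with a median difference of -1.09 against -0.001 over all probe sets. In roots 35 were lower and 5 higher, 50.7% and 7.25% against 12.1% and 14.3% of all probe sets, with a median of -0.56. Of 49 photosynthesis genes of the chloroplast 26 had line means of 5 or more in roots, 12 of them lower and 4 higher. Of 19 ribosomal protein and polymerase genes 13 did, 6 lower and 1 higher. On the 5 nuclear chromosomes, 7.24% to 9.9% of the measured genes were lower in shoots. Chloroplast genes share promoters and transcripts, so they are not independent of each other.

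Averaged over the 69 genes, El-0 shoots stood at 8.49, 9.39 and 9.40 at low and 10.08, 10.45 and 10.05 at sufficient nitrate. The mean over the 6 arrays was 9.64 ± 0.70, against 10.62 ± 0.66 in SG063, 10.78 ± 0.65 in NG087, 10.82 ± 0.52 in NG064 and 10.90 ± 0.70 in KB006. Within each supply and replicate number El-0 lay below the lowest other line, and its difference from the mean of the others was -0.89 to -1.51. In roots El-0 averaged 6.41 ± 0.37 and the others 6.79 ± 0.30 (SG063) to 7.46 ± 0.45 (KB006). There El-0 lay below the lowest other line in 5 of the 6 combinations of supply and replicate number. In low replicate 1 it stood at 6.39 with SG063 at 6.24. Replicate numbers mark no known pairing. Regardless of them, El-0 root low replicates 1 and 3 (6.39 and 6.71) both lay above SG063 low replicate 1. At sufficient nitrate El-0 roots reached 6.80 and the other lines began at 6.87. Leaving out El-0 sufficient replicate 1 in shoots left 36 of 49 photosynthesis genes and 15 of 19 ribosomal protein and polymerase genes of the chloroplast lower, against 38 and 15 with it.

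**Figure D2:**
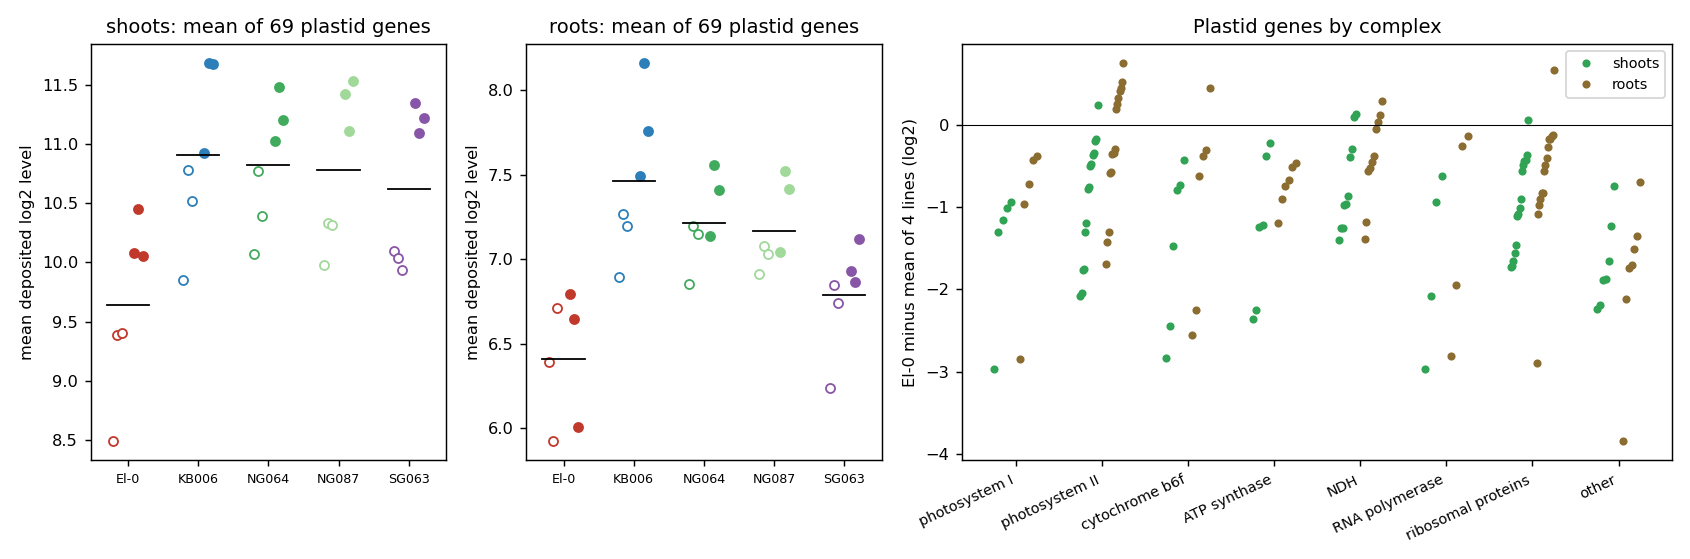
Left and middle: mean deposited log2 level of 69 chloroplast genes on each array (y axis) by line (x axis), with open circles for 0.4 mM and filled circles for 9 mM nitrate and bars for line means. Right: difference of each gene, El-0 minus the mean of 4 lines (y axis, log2), by complex, with shoots in green and roots in brown. El-0 has the lowest line mean in both organs, 9.64 in shoots and 6.41 in roots.

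The largest chloroplast differences were in genes of different complexes. accD encodes a subunit of the enzyme that starts fatty acid synthesis, psaI a small subunit of photosystem I, rpoC1 a subunit of the chloroplast RNA polymerase, petA cytochrome f, and cemA a protein of the chloroplast envelope. In shoots accD lay at 6.52 to 8.12 in El-0 and 8.09 to 10.74 in the other lines. In roots it lay at 2.36 to 5.25 against 6.64 to 9.09, with no overlap. Its differences were -2.19 ± 0.20 and -3.85 ± 0.29. Near it in size in both organs were psaI (-2.96 and -2.85), rpoC1 (-2.97 and -2.81), petA (-2.45 and -2.55), petL (-2.83 and -2.25) and cemA (-2.25 and -2.12). rbcL, which encodes the large subunit of the carbon-fixing enzyme Rubisco, was at -1.66 ± 0.15 in shoots and -1.36 ± 0.21 in roots.

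By complex, all 6 ATP synthase genes were lower in both organs, from -0.23 for atpB to -2.37 for atpI in shoots. The 7 genes outside the large complexes, accD, cemA, rbcL, ccsA, ycf3, ycf4 and clpP, were lower in both organs too. Of 15 photosystem II genes 12 were lower in shoots, led by psbB (-2.08), while in roots 5 were lower and 3 were higher. The higher ones were psbC (0.75 ± 0.15), psbF (0.52) and psbE (0.45), which encode an inner antenna and both subunits of cytochrome b559. Without El-0 root sufficient replicate 2 psbE stood at 0.34 with an adjusted p of 0.0881. Of 10 genes of the NADH dehydrogenase-like complex 5 were lower in shoots and 3 in roots. Of 15 ribosomal protein genes 12 were lower in shoots, and 7 were lower and 1 (rps4, 0.67) was higher in roots. Over all probe sets 9.32% were lower in shoots, and 12.1% were lower and 14.3% higher in roots. The counts of higher genes in roots are near that share and do not set these complexes apart.

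Of 15 measured mitochondrial genes, 6 were lower in El-0 and 0 higher in each organ: nad4 (-1.49 ± 0.25 in shoots and -1.18 ± 0.22 in roots), cox1 (-1.47 and -0.95), ccb382, nad9, nad1 and nad5. nad4, nad9, nad1 and nad5 encode subunits of respiratory complex I, cox1 a subunit of cytochrome oxidase, and ccb382 a protein of cytochrome c maturation. Over all probe sets 9.32% were lower in shoots and 12.1% in roots. SG063 was about as low as El-0 in the mean over the 15 genes: 3.54 ± 0.16 against 3.49 ± 0.28 in roots and 3.46 against 3.37 in shoots. Called against each line were 2 of the 6 in shoots and 0 in roots. Only 4 of the 15 had line means of 5 or more, and 3 of these were lower in each organ. Without El-0 shoot sufficient replicate 1, 5 were lower in shoots.

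Nuclear genes of photosynthesis gave other counts. Of 9 photosystem, antenna and electron transport genes, 3 were lower and 1 higher in El-0 shoots, and in roots 6 were higher and 0 lower. Over all probe sets 9.32% were lower and 9.78% higher in shoots, and 12.1% and 14.3% in roots. LHCB4.2, a minor antenna protein of photosystem II, was at -0.72 ± 0.08 in shoots (adjusted p = 4.06e-07) and -0.21 in roots (adjusted p = 0.803). The other shoot calls of this list were each lost when certain single arrays were left out. PSAE-1 (-0.14, adjusted p = 0.0476) lost its call when any 1 of most arrays was left out, with an adjusted p up to 0.225. PSBW (-0.22) lost it without El-0 low replicate 1 or 2 or sufficient replicate 1 (adjusted p = 0.0887, 0.062 and 0.0863). LHCB4.3 (0.80) lost it without El-0 sufficient replicate 1 or 3 (adjusted p = 0.0525 and 0.0514). In roots LHCB4.3 (1.2 ± 0.23), PSAN (1.18), PSBY (1.13), PSBW (1.03), ATPC1 (0.92) and LHCB4.1 (0.68) were higher. PSAN lost its call without El-0 root low replicate 3, at 0.99 with an adjusted p of 0.0615.

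Of 5 genes of the Calvin cycle and photorespiration 4 were higher in El-0 roots: SBPASE (1.41 ± 0.26), HPR (1.17 ± 0.23), RCA (0.87 ± 0.21) and PRK (0.86 ± 0.19). Only 2 of the 5 had line means of 5 or more in roots, and 1 of these was higher. Over all probe sets 14.3% were higher in roots, and 9.78% were higher and 9.32% lower in shoots. In shoots SBPASE (0.32) and TPI (0.27) were called, and neither was without El-0 sufficient replicate 1 (adjusted p = 0.181 and 0.0551). SBPASE also lost the shoot call without El-0 low replicate 2 or 3 or sufficient replicate 3. SBPASE and PRK are Calvin cycle enzymes, RCA activates Rubisco, HPR works in photorespiration and TPI interconverts triose phosphates. Of 9 chlorophyll synthesis genes 3 were lower in shoots, PORB (-1.11 ± 0.26, or -0.68 without that array), HEME1 (-0.58) and HEMB1 (-0.53). In roots 3 others were higher, CHLI2 (1.52 ± 0.20), HEME2 (0.42) and GSA1 (0.26). CHLI2 averaged 4.96 in El-0 roots and 5.29 in SG063, so SG063 was as high. GSA1 was at 0.22 without El-0 root sufficient replicate 2 (adjusted p = 0.058).

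The measured leaf markers are all genes of these lists, so they are no separate evidence on these root differences. Of 8 measured leaf markers 7 were called higher in El-0 roots, where 14.3% of all probe sets were, and LHCB4.2 was not. Their mean level was 5.22 to 5.67 in El-0 roots at low nitrate and 3.29 to 5.24 in the other lines. At sufficient nitrate it was 7.92 to 8.68 against 6.53 to 7.97. In each supply 1 array of KB006 reached into the El-0 range. In shoots it was 12.15 to 12.67 against 12.23 to 12.65 at low and 13.08 to 13.14 against 12.74 to 13.20 at sufficient nitrate. The mean over 3 root marker probe sets in roots at low nitrate was 8.47 to 8.85 in El-0 and 7.37 to 8.8 in the other lines. At sufficient nitrate that mean was 8.06 to 8.25 against 7.6 to 8.3. The part of leaf material in the root samples was not tested.

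**Figure D3:**
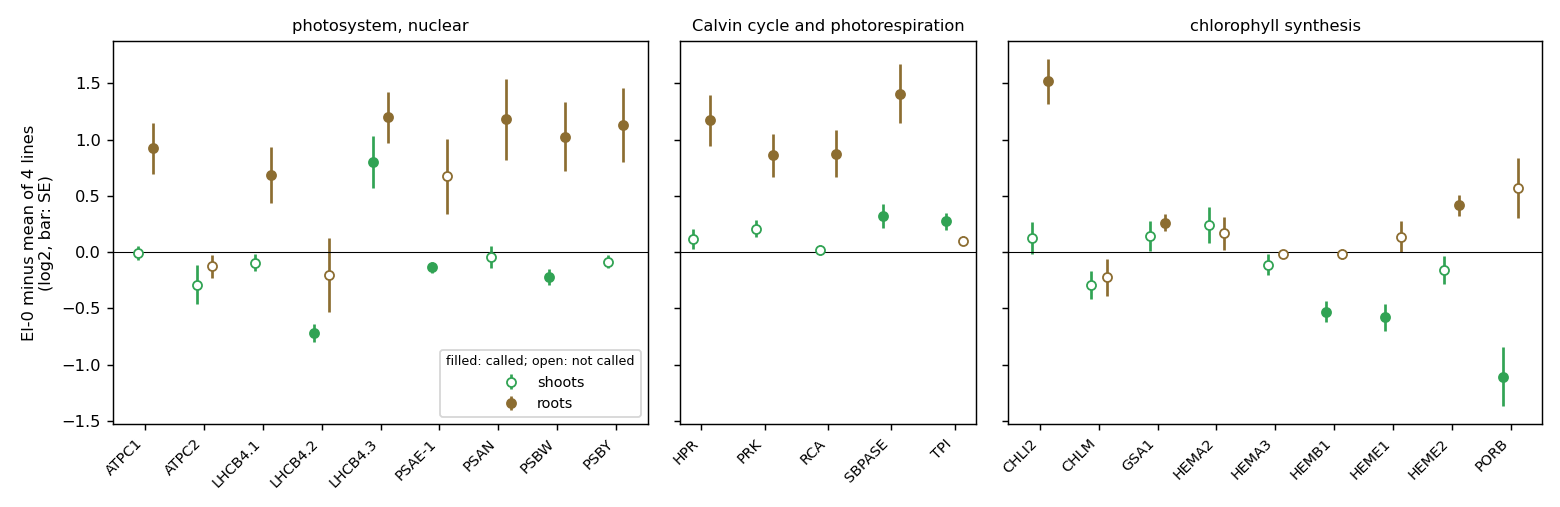
Difference between El-0 and the mean of 4 lines (y axis, log2, bars are limma's standard error) for nuclear genes of 3 lists (x axis), in shoots (green) and roots (brown), with filled points called and open points not called. Root points lie above 0 for most genes, up to 1.52 for CHLI2, and most shoot points lie near or below 0, with LHCB4.3 highest at 0.80.

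Flavonoid genes, whose pathway makes anthocyanins and glycosylated flavonols, were called in both organs. Of 8 measured genes 4 were higher and 1 lower in El-0 shoots, with and without El-0 sufficient replicate 1. Over all probe sets 9.78% were higher and 9.32% lower there. Only 2 of the 8 had line means of 5 or more in shoots, and 1 of these was higher. DFR, which makes the anthocyanin precursors, was at 10.99, 9.75 and 7.64 in El-0 shoots at low nitrate and at 7.86, 2.18 and 2.16 at sufficient. KB006 was close to El-0 with 9.13, 7.27 and 8.90 at low nitrate, and SG063 was at the floor on all 6 arrays. The difference was 3.02 ± 0.81 (adjusted p = 0.00944), with line means of 6.77 in El-0 and 5.64 in KB006. UF3GT (2.31 ± 0.58) and UGT78D2 (1.79 ± 0.31), both of which add sugars, and AT5MAT (1.34), which adds a malonyl group, were higher too. AT5MAT stood at 0.79 without El-0 low replicate 1. UGT78D1, which adds rhamnose to flavonols, was lower (-1.70 ± 0.44).

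In roots UGT78D2 (1.36 ± 0.14, called against each line), UGT78D1 (1.4 ± 0.36), DFR (1.05) and UF3GT (0.76) were higher, where 14.3% of all probe sets were. Only 1 of the 8 genes had line means of 5 or more in roots, and it was higher. DFR in roots rested on 1 array: El-0 sufficient replicate 2 had 6.01, the other 5 El-0 arrays had 2.11 to 3.33, and without it the difference was 0.48. CHIL, a further gene of flavonoid synthesis, was 2.21 ± 0.30 higher in El-0 roots and highest on the same array, at 8.80. UGT78D1 was at 0.93 without that array. It differed in opposite directions in the 2 organs, with a difference between them of -3.09 (adjusted p = 1.26e-04). HYH, a bZIP factor of light signalling, was 1.94 ± 0.50 higher in shoots, or 1.23 without El-0 sufficient replicate 1, where it stood at 10.06.

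Of 12 measured genes of nitrogen recycling, 4 were lower in El-0 roots, 0 were higher and 8 were not called, where 12.1% of all probe sets were lower: ALN (-1.11 ± 0.14) and AAH (-1.10 ± 0.14), which break down ureides, MCCA (-0.96), which degrades leucine, and DELTA-OAT (-0.31). In shoots ALN (-0.94 ± 0.19) and MCCA (-1.26) were lower and ASPGB1 (1.21) and PPDK (1.02 ± 0.21) higher. Over all probe sets 9.32% were lower and 9.78% higher in shoots. Without El-0 sufficient replicate 1 ALN was at -0.61, and MCCA (-0.52, adjusted p = 0.122) and ASPGB1 (0.86, adjusted p = 0.0957) were not called. MCCA also lost its call without sufficient replicate 3 (adjusted p = 0.0526) and ASPGB1 without low replicate 1 (adjusted p = 0.0646). Of 10 autophagy genes, which make the vesicles that carry cell contents to the vacuole, 6 were lower and 0 higher in roots, among them ATG8B (-0.60 ± 0.13) and ATG8E (-0.55 ± 0.12). In shoots 3 were lower, or 1 without that array, which is near the 9.32% of all probe sets that were lower there.

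Glucosinolates are sulphur- and nitrogen-containing defence compounds. Of 7 genes of their aliphatic branch 3 were higher in El-0 shoots, where 9.78% of all probe sets were: GTR1 (1.14 ± 0.25), AOP1 (1.05 ± 0.27) and GTR2 (0.57 ± 0.15). GTR1 and GTR2 import glucosinolates into cells. In roots GTR1 (0.54) and GTR2 (0.47 ± 0.13) were higher, while BCAT4 (-1.0 ± 0.18), the first enzyme of chain elongation, AOP1 (-0.45) and UGT74B1 (-0.45) were lower. Over all probe sets 14.3% were higher and 12.1% lower in roots. Single El-0 root arrays ended 3 of the root calls of this list. GTR1 lost it without low replicate 3 or sufficient replicate 2 and AOP1 without low replicate 2 or sufficient replicate 1. UGT74B1 lost it without any of the low replicates or sufficient replicate 2 (adjusted p up to 0.0971). Of 9 genes of ER bodies, stores of defence enzymes, JAL34 (-1.23 ± 0.21) and JAL33 (-0.75) were lower and JAL23 (1.77 ± 0.45) higher in shoots.

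Of 9 auxin-responsive genes 3 were lower in El-0 shoots, or 1 without El-0 sufficient replicate 1, and 2 in roots, where 9.32% and 12.1% of all probe sets were lower. GH3.3, which conjugates auxin to amino acids, was at -2.40 ± 0.43 in shoots. IAA29, a repressor of auxin responses, was at -2.86 ± 0.89 and HAT2 at -1.09 ± 0.30, but IAA29 (-1.98, adjusted p = 0.135) and HAT2 (-0.80, adjusted p = 0.067) were not called without El-0 sufficient replicate 1. IAA29 spanned nearly the whole scale within groups: at low nitrate 2 of the 3 arrays of each other line lay at 2.12 to 3.85 and the third at 6.87 to 7.90. In roots GH3.3 (-0.83) and WES1 (-0.42) were lower, and GH3.3 lost its call without El-0 low replicate 1 or 3 or sufficient replicate 3 (adjusted p = 0.0899, 0.0977 and 0.0538).

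Of 27 expansins and xyloglucan enzymes, which loosen and rebuild the cell wall, 9 were higher and 4 lower in roots, and 1 and 1 in shoots. Over all probe sets 26.4% were called in roots and 19.1% in shoots, and the difference between the organs was not tested for the list. XTH26 (1.4 ± 0.25), EXPA15 (1.04) and EXPA8 (1.02) were among the higher genes. EXPB2 (-2.61 ± 0.33) was lower than in each other line, and EXLA1 (-1.06) and XTH18 (-1.04) were lower too. EXPA8 was lower in shoots (-1.19 ± 0.29), with a difference between the organs of -2.20.

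Larger gene families had called members in both directions, where 19.1% of all probe sets were called in shoots and 26.4% in roots. Of 47 UGT glycosyltransferases 6 were higher and 6 lower in shoots, and 10 and 6 in roots. UGT72B3 was higher in both organs (1.22 ± 0.23 and 1.38 ± 0.07), and UGT76C1, which inactivates cytokinins, was lower in both (-1.09 ± 0.10 and -1.03 ± 0.11). UGT84A3 (1.68 ± 0.18) led in roots, and UGT73B4 (-2.24 ± 0.27) was lowest. Of 22 cytochromes P450 1 was higher and 3 lower in shoots, and 4 and 5 in roots. Without El-0 sufficient replicate 1 the shoot counts were 6 and 4 for the glycosyltransferases and 0 and 3 for the cytochromes P450. Of 40 MADS box factors 2 were higher and 2 lower in shoots, among them AGL24, a promoter of flowering (1.52 ± 0.36), and 2 and 3 in roots. Of 11 tau-class glutathione transferases 2 were lower in shoots (GSTU26 at -1.64 ± 0.32 and GSTU16 at -1.0), and 4 were higher and 1 lower in roots (GSTU28 at 1.18 ± 0.23). Of 20 beta-glucosidases 1 was higher and 3 lower in shoots, and 2 and 2 in roots. Of 17 peptide hormones 4 were higher and 2 lower in roots, with CLE44 at 0.90 ± 0.20.

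Smaller lists gave single genes. SWEET14 (0.89 ± 0.17) and SWEET13 (1.29 ± 0.28), which export sucrose, were higher and SWEET11 (-1.46) lower in roots, 3 of 14. The share called in roots over all probe sets was 26.4%, so this count does not set the family apart. SWEET11 in roots was at -1.21 with an adjusted p of 0.0666 without El-0 root sufficient replicate 2. The iron regulator bHLH121 was higher in shoots (0.91 ± 0.16, called against each line), and BGLU42 was higher in roots (1.36 ± 0.28). The clock gene GI was lower in both organs, at -0.94 in shoots and -0.93 ± 0.17 in roots. Its shoot call was lost without El-0 low replicate 3 or sufficient replicate 1 or 3 (adjusted p = 0.0687, 0.072 and 0.104). Of 5 senescence genes SAG29 (1.43 ± 0.34) and PPDK were higher in shoots, where 9.78% of all probe sets were. Single further members of the lists, such as rbcL, psbB, PRK and ATPC1, were named after their values were seen.

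The following genes with a symbol of their own were picked after their values were seen, as all called nuclear ones with a 2-fold difference: 74 in shoots, 40 higher and 34 lower, and 78 in roots, 48 and 30. SBT3.12, a subtilisin-like protease, was lower in both organs (-3.20 ± 0.16 and -3.46 ± 0.18), and so was LUL1, a ubiquitin ligase (-2.92 ± 0.17 and -1.55 ± 0.09), both against each line. APL3, a subunit of the enzyme that starts starch synthesis, was higher in both (2.09 ± 0.33 and 1.34 ± 0.19), with KB006 the nearest line in each. In shoots the thionin gene THI2.2 (3.00 ± 0.39), the histone chaperone ASF1B (-1.59 ± 0.17) and the methionine sulfoxide reductase MSRB5 (1.87 ± 0.37) differed. In roots MGL, which cleaves methionine, was at -3.19 ± 0.25: El-0 lay at 3.80 to 5.09 and the other lines at 6.08 to 8.98. LPR1, an iron oxidase that arrests root growth at low phosphate (2.25 ± 0.32), and the linker histone gene HIS1-3 (2.12 ± 0.42) were higher in roots.

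At several of these genes the 5 lines fell into groups, and El-0 shared its level with some of them. CSA1, an immune receptor, lay at 9.02 to 10.01 on all shoot arrays of El-0, KB006 and SG063 and at 2.12 to 2.36 in NG064 and NG087, which share their parents. Its difference from the mean of the 4 lines was 3.37 ± 0.08 in shoots and 3.51 ± 0.10 in roots. In roots El-0 averaged 8.81, KB006 8.16, SG063 8.42 and the NG lines 2.3 and 2.32. ECS1, a cell wall protein gene, was high in El-0 (8.93 ± 0.69) and SG063 (9.45 ± 0.98) shoots, low in the others and near the floor in all roots. The tubulin gene TUA6 was low in the same pair, 6.60 ± 0.83 and 5.96 ± 1.02 against 10.26 to 11.23 in shoots, and likewise in roots.

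ATB2, an aldo-keto reductase gene, was low in KB006 (2.61 ± 0.49 in shoots and 2.62 ± 0.31 in roots) and at 7.53 to 11.14 in the line means of the rest. Its difference of 1.47 in shoots and 1.76 in roots became -0.08 and -0.27 with KB006 left out. The gene 2A6 averaged 3.62 in KB006, 4.67 in NG087 and 7.58 in El-0 shoots, and a further probe set of it stood at -0.53 in shoots (adjusted p = 0.0708) against 1.75. THI2.2 was higher in El-0 and KB006 shoots (10.51 ± 2.31 and 10.03 ± 1.55) than in the other lines, whose means were 6.03 to 7.03.

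**Figure D4:**
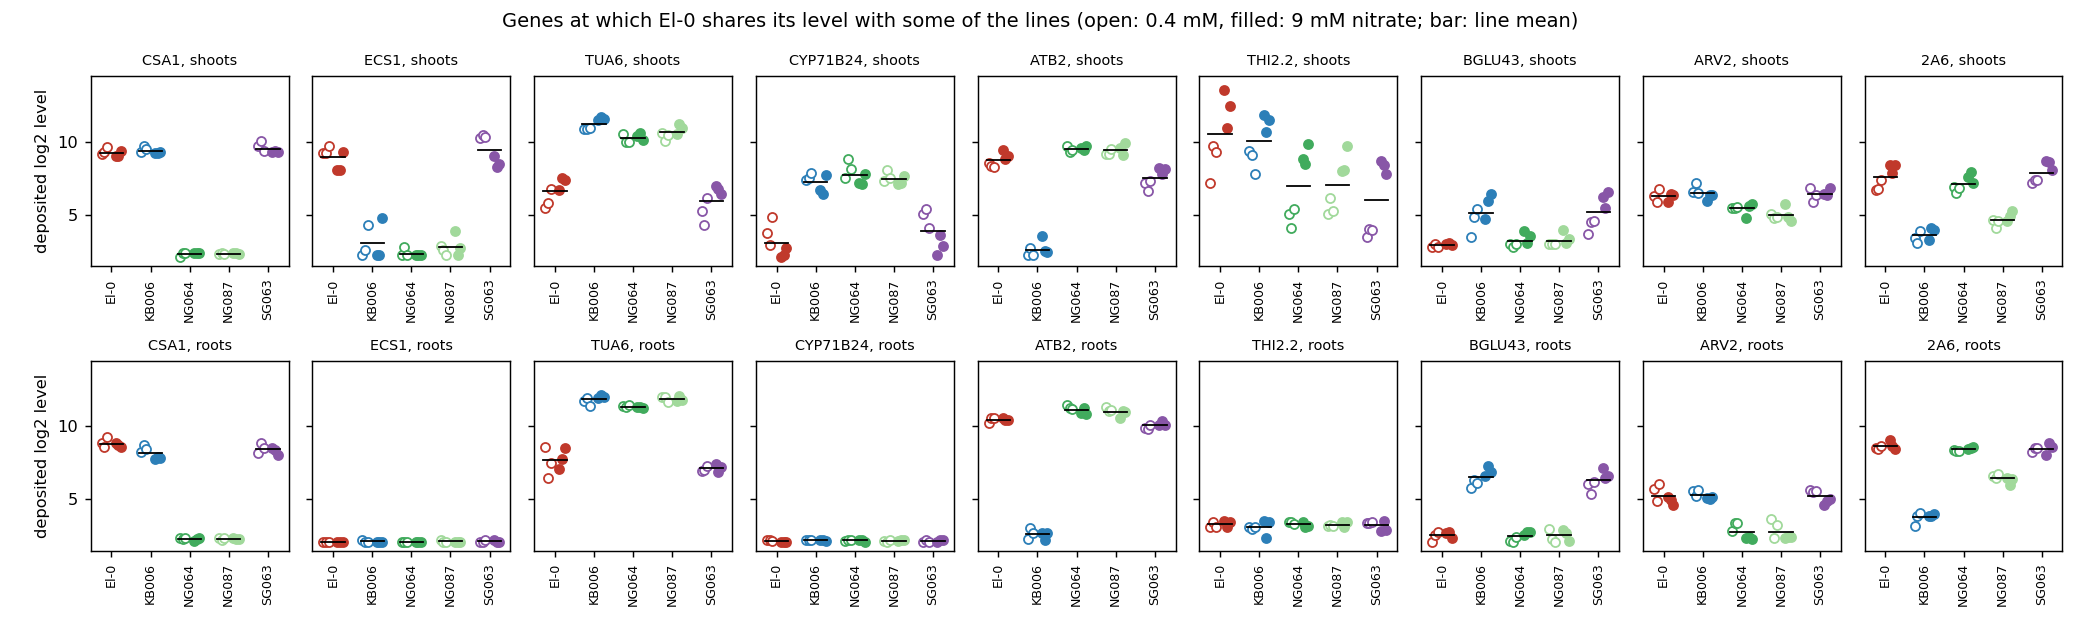
Deposited log2 level (y axis) per array of 9 genes at which the lines fall into groups, by line (x axis), in shoots (top) and roots (bottom), with open circles for 0.4 mM and filled circles for 9 mM nitrate and bars for line means. CSA1 is near the floor in NG064 and NG087, ATB2 in KB006, and TUA6 is low in El-0 and SG063.

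Shoots and roots shared part of the El-0 differences. Higher in both were 1229 probe sets, 55.2% of those higher in shoots and 37.7% of those higher in roots, and 1096 were lower in both (51.7% and 39.9%). With 2-fold differences 145 were higher in both (31% and 30.5%) and 144 lower in both (32.4% and 33.3%). Called in opposite directions were 112. The difference itself differed between the organs for 1985 probe sets (8.73%). The 5 largest in each direction among probe sets paired with 1 gene were low in 1 organ. The difference in shoots minus that in roots was 5.36 to 4.44 for AT3G15600, AT5G62340, AT1G51990, ECS1 and AT3G51350. It was -6.21 to -4.03 for AT3G32030, AT5G03350, AT3G32040, AT3G47250 and AT1G48800. AT3G32030 and AT1G48800, for example, lay at 2.11 on all 30 shoot arrays.

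**Figure D5:**
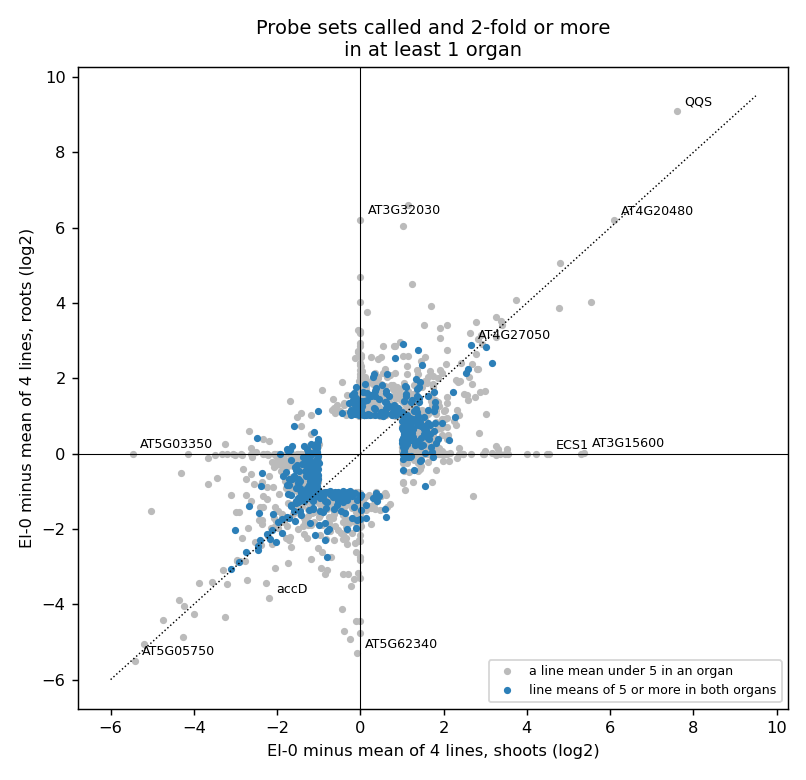
Difference between El-0 and the mean of 4 lines in shoots (x axis, log2) and roots (y axis, log2) for the 1527 probe sets called with a 2-fold difference in at least 1 organ. Blue points are the 458 with line means of 5 or more in both organs, grey points the others, and the dotted line marks equal differences. Points on the axes, such as ECS1, differ in 1 organ. AT5G05750 lies near the dotted line, and QQS lies above it, with the larger difference in roots.

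The El-0 difference depended on the nitrate supply for 122 probe sets in shoots (0.536%) and for 933 in roots (4.1%). In shoots the count was 1072 without El-0 sufficient replicate 2 and 50 without all arrays numbered replicate 1. In roots it ran from 101 to 1089 over the sets of arrays left out, the lower also without replicate 1. In roots AT4G04990 showed a reversal. El-0 was at 9.15, 8.81 and 8.84 at low and 6.01, 5.28 and 6.31 at sufficient nitrate, while NG064 and NG087 lay at 5.91 to 7.18 at low and 7.35 to 8.79 at sufficient. Its difference was 1.56 at low and -2.60 at sufficient nitrate (adjusted p of the change = 2.44e-06). KB006 and SG063, also in the mean of 4 lines, together averaged above the NG lines at low nitrate and so nearer to El-0. AT5G43520 was at the floor on all 6 El-0 root arrays and rose to 7.36 to 9.08 at sufficient nitrate in KB006, NG064 and NG087, which gave differences of -0.95 and -4.69. AT3G05950 was at 2.11 in all root arrays at low nitrate. At sufficient nitrate it reached 7.12, 7.62 and 4.61 in El-0, overlapping KB006 at 3.06 to 5.32, with a difference of 3.57. In shoots AT1G04625 (0.13 at low and 2.75 at sufficient nitrate) and AT4G29520 (-1.17 and 0.88) were called.

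The same contrast was run for each line against the other 4, with shared arrays, so the counts are only set side by side. In shoots El-0 had 4345 calls, KB006 2934, SG063 2278, NG064 2277 and NG087 1909. In roots KB006 had 6015, El-0 6007, NG064 5447, SG063 5211 and NG087 4375. With 2-fold differences El-0 had 912 in shoots and 907 in roots, and the other lines 403 to 720 and 530 to 829. NG064 and NG087 are sister lines, and each stands among the 4 lines that the other is set against.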

How the data were processed

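The deposited table holds log2 values of 22746 probe sets on 72 Affymetrix ATH1 arrays. Per the submitters' processing notes it was made with affy, GCRMA and limma, with no versions given. GCRMA corrects background from probe sequence and normalizes across arrays, so low values gather at the floor. Differences were computed here with limma 3.58.1 in R 4.3.3, per organ over 30 arrays, with line and nitrate supply as terms and 24 residual degrees of freedom. Benjamini-Hochberg adjustment ran over all probe sets. Organ and nitrate differences were tested as contrasts of group means. The code was tested on simulated data. The number of arrays limits precision.

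Genes were named as the 10 largest per direction with line means of 5 or more, the 6 largest among dimmer probe sets (both called against each line), up to 3 per direction in a list, 5 for the organ and 3 for the nitrate difference. Members, lists and the comparison were chosen with earlier results of these data known. Replicate numbers were not taken as pairs, as no pairing is known. Same-numbered arrays had median correlations of 0.076 in shoots (up to 0.529) and 0.003 in roots (up to 0.423). For other pairs the medians were -0.035 and 0.003. These are not correlations of the levels, whose lowest r with the array's own condition was 0.954. Of 30 arrays, 17 in shoots and 18 in roots matched best with their own number. Whether same-numbered arrays share a batch was not tested.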

Additional observations from a re-analysis of the deposited data

Results flagged for a closer look

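The difference between El-0 and the mean of the 4 lines itself differed between shoots and roots for 1985 probe sets, and between the nitrate supplies for 122 in shoots and 933 in roots. The named genes below had the largest such differences or, among the other named genes, a called one of 2 log2 units or more.

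The difference in shoots minus that in roots was positive for AT3G15600 (5.36), AT5G62340 (5.22), AT1G51990 (4.67), ECS1 (4.54), AT3G51350 (4.44), AT5G59670 (4.01), THI2.2 (2.94), MGL (2.90), AT5G43520 (2.81), EXPB2 (2.5) and SWEET11 (2.06). It was negative for AT3G32030 (-6.21), AT5G03350 (-5.47), AT3G32040 (-4.70), AT3G47250 (-4.13), AT1G48800 (-4.03), AT5G52190 (-3.55), CYP71B24 (-3.46), UGT78D1 (-3.09), AT5G45310 (-2.86), IAA29 (-2.85), AT5G61520 (-2.41), EXPA8 (-2.20) and Fes1B (-2.19).

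The difference at low minus that at sufficient nitrate in roots was positive for AT4G04990 (4.16), AT5G43520 (3.74), AT3G55790 (2.89), AT5G62340 (2.15), EXPB2 (2.11), PRX52 (2.11) and THIC (2.1), and negative for AT3G05950 (-3.57), AT5G60250 (-2.66) and AT4G15660 (-2.59). In shoots it was positive for AT5G61520 (2.02), AT1G16950 (1.95) and AT3G56730 (1.79), and negative for AT3G21080 (-2.87), AT1G04625 (-2.62) and AT4G29520 (-2.06). The nitrate change of AT5G62340, EXPB2, PRX52 and THIC was not rerun with arrays left out. For the other genes, single El-0 arrays ended some of these calls. In shoots AT1G16950 was not called without any of low replicates 1 and 2 and sufficient replicates 1 and 3 (adjusted p up to 0.13), AT3G21080 without low replicate 1 or 2 (0.0561 and 0.0507) and AT3G56730 without low replicate 1 (0.0757). In roots AT3G55790 was not called without any of low replicates 1 and 2 and sufficient replicates 1, 2 and 3 (adjusted p up to 0.14), and AT4G15660 without sufficient replicate 2 (0.0563).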

How the results depend on the processing

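Leaving out each array, or each replicate number, in turn gave 2345 to 4576 called probe sets in shoots (4345 with all) and 3716 to 6146 in roots (6007). Among probe sets with line means of 5 or more it gave 1782 to 3540 in shoots and 2756 to 4611 in roots. Calls against each line ran from 303 to 870 in shoots and 571 to 1203 in roots, nitrate dependence from 50 to 1072 and 101 to 1089, and the organ difference from 1079 to 2232. Removing a replicate number leaves fewer arrays in every group. Requiring a 2-fold difference left 912 calls in shoots and 907 in roots, 447 and 371 with line means of 5 or more, and 323 and 430 against each line. Without SG063, 1742 were called against each of the remaining lines in roots. Reversed were ATB2 without KB006 (-0.084 in shoots and -0.27 in roots) and CYP71B37 in roots without SG063 (-0.146), and the cause was not tested. Of the named genes, 69 of 140 in shoots, 110 of 166 in roots, 3 of 12 for nitrate dependence and 10 of 10 for the organ difference had the same direction and side of the threshold under every setting run.

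With the replicate number as a block, which does not follow a known pairing, 4382 were called in shoots and 5941 in roots, 709 and 1120 against each line, 111 and 1015 for nitrate dependence and 1997 for the organ difference. Probe sets near the floor carry little signal over background, and differences there are understated.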
